A study of Mus musculus with 4 samples.

Results

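Genes of protein folding in the endoplasmic reticulum (ER) and of the unfolded protein response were compared between 4 subsets of dendritic cells (DCs) from mouse spleen. The set held 37 genes, chosen by function and taken by gene symbol from the platform's annotation. Of these, 36 had at least 1 probe set that named no other gene, 89 probe sets in all, and each gene was read at the probe set of highest mean log2 signal. The 36 genes were among 18193 named genes of the series. Sec61g had only a probe set that also names other genes, so no value is given for it. All 36 lay on at least 1 array above a floor of 55.7, the 90th percentile of signal at 127 probe sets for chemosensory receptor and hair keratin-associated protein genes, and 34 did so on all 4 arrays. Across the series 12608 genes passed that floor on at least 1 array.

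The 4 subsets were titled CD8+CX3CR1+, CD8+CX3CR1-, CD4+ and DN, where DN usually means DCs that lack both CD4 and CD8. Every subset came from spleens labelled as not treated with BMP4, of Cx3cr1gfp/+ C57BL/6 mice, in which a green fluorescent protein gene replaces 1 copy of Cx3cr1, the gene of a chemokine receptor, so all the cells have 1 working copy. CD11c-positive cells were enriched magnetically after collagenase digestion, those with high CD11c were sorted, and total RNA was hybridised to 1 Affymetrix mouse genome array per subset. No source used here gives the ages or number of mice, the gates or any pooling.

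The ER folds and modifies proteins bound for the cell surface or for secretion. When unfolded proteins build up there, the membrane sensors IRE1 (gene Ern1), PERK (gene Eif2ak3) and ATF6 start the unfolded protein response (UPR). IRE1 splices the messenger RNA of the transcription factor XBP1, PERK slows translation while favouring that of ATF4, and ATF6 is cleaved into a transcription factor. Their target genes encode chaperones, foldases, parts of the translocation channel and the machinery that returns failed proteins to the cytosol for degradation. Secretory cells such as plasma cells are known for high levels of these genes, and activity of the IRE1 and XBP1 arm has been described in the CD8+ type of conventional DC in mouse spleen.

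Values are MAS5 signal, a microarray intensity on a linear scale, and differences are on the log2 scale with signals under the floor raised to it. With 1 array per subset no test was possible, no value has a standard deviation, and the number of arrays limits the precision. Each difference describes 2 arrays, and fewer cells of a type in a sort cannot be told apart from less RNA per cell. The CD11c gene Itgax was between 3271 and 6415 on the 4 arrays. Cd8a was 2530 and 4742 on the CD8+CX3CR1+ and CD8+CX3CR1- arrays, under the floor for CD4+ and 130 for DN, and Cx3cr1 and Cd4 also went with the sample titles. A second label field names another cell type than the title for CD8+CX3CR1- and DN, and the titles were followed. The ratio of 3' to 5' signal at the Gapdh controls, higher where RNA is less intact, was 8.98, 8.33, 11.8 and 7.56 on the CD8+CX3CR1+, CD8+CX3CR1-, CD4+ and DN arrays. In the same order 41.7%, 41.0%, 47.6% and 42.5% of probe sets lay above the floor.

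At the chosen probe sets the ER genes had their highest signal on the CD8+CX3CR1- array in most cases and their lowest on the CD4+ array. Of the 36 genes, 26 (72.2%) were highest on the CD8+CX3CR1- array, against 26.8% of all 12608 detected genes. The lowest of the 4 signals was on the CD4+ array for 24 (66.7%), against 24.3% of all detected genes. Probe sets other than the chosen one (further probe sets) had a median log2 difference of 0.45 in CD8+CX3CR1- over CD4+. Their median was only 0.01 in CD8+CX3CR1+ over CD4+ and -0.05 in CD4+ over DN. The place of the CD4+ array as lowest thus rests largely on the chosen probe sets. The geometric mean over the 36 genes was 746, 1126, 605 and 776 on the CD8+CX3CR1+, CD8+CX3CR1-, CD4+ and DN arrays. Over all detected genes it was 202, 197, 207 and 200 in the same order. The CD4+ array was also the one with the highest Gapdh ratio. The same ratio at the actin controls was 2.32, 1.79, 2.86 and 2.23 in the same order. It was thus highest on the CD4+ array and lowest on the CD8+CX3CR1- array. The part of RNA integrity in the ER values of these arrays was not tested.

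**Figure D1:**
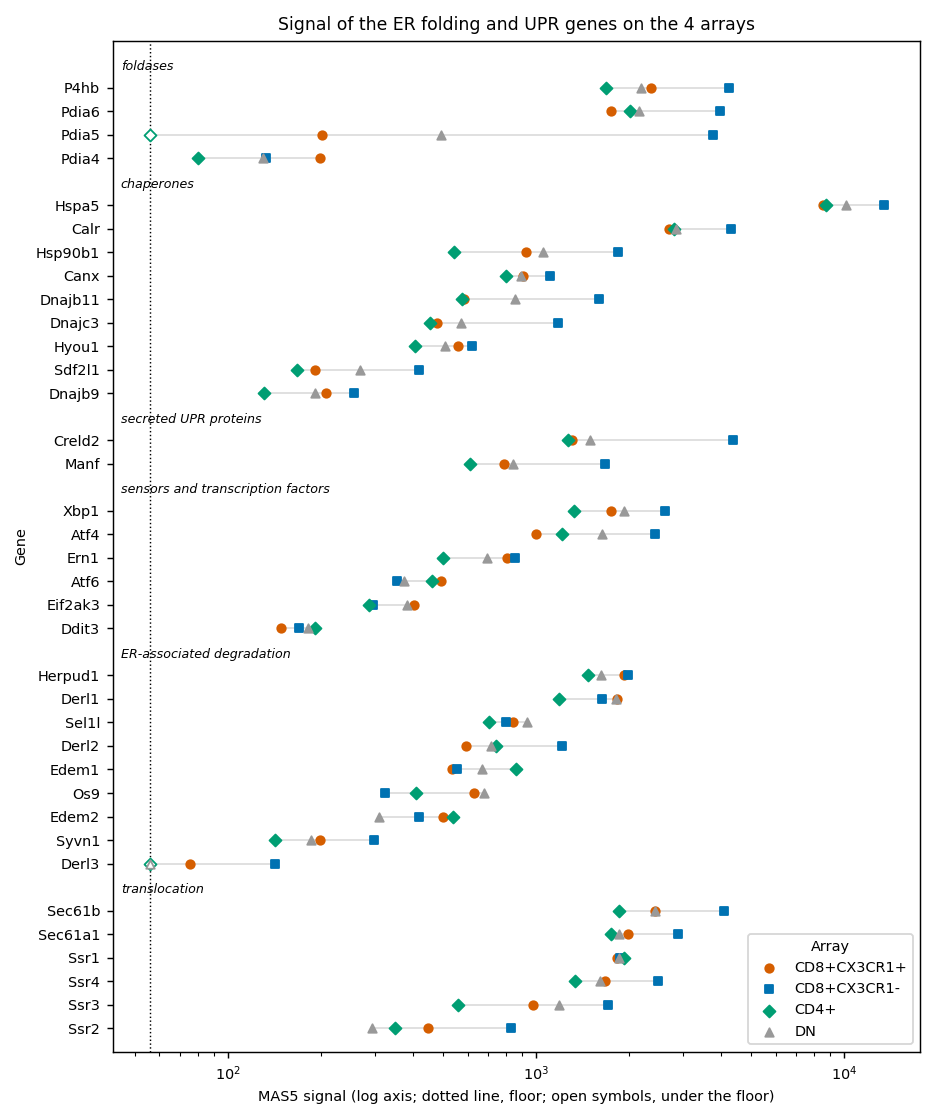
MAS5 signal (log axis) of each of the 36 genes on the 4 arrays, grouped by role, with 1 symbol per array, the floor of 55.7 as a dotted line and open symbols for values under it. The squares of the CD8+CX3CR1- array lie furthest right for 26 genes and the diamonds of the CD4+ array furthest left for 24.

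CD8+CX3CR1+ and CD8+CX3CR1- DCs both carry surface CD8. Between their arrays 9 of the 36 genes (25%) were lower by 2-fold or more in CD8+CX3CR1+ DCs, against a background of 5.81% of detected genes, and 0 were at least 2-fold higher, against 7.72%. The genes were Pdia5, Pdia6, Dnajb11, Dnajc3, Sdf2l1, Creld2, Manf, Atf4 and Derl2. The median log2 difference of the 36 genes was -0.58, with 29 below 0 and 7 above it, while the median of all detected genes was 0. One gene, Pdia5, was past 4-fold, as were 1.15% of detected genes in that direction.

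CD8+CX3CR1- and CD4+ DCs stand for the main CD8+ and CD4+ lineages of the spleen. On the CD8+CX3CR1- array 14 of the 36 genes (38.9%) were at least 2-fold higher than in CD4+ DCs, against 6.78% of detected genes, and 0 were at least 2-fold lower, against 9.11%. The median was 0.83, with 30 genes above 0 and 6 below, and that of all detected genes was -0.01. Pdia5 was again the 1 gene past 4-fold, a size that 1.18% of detected genes reached. With arrays scaled to an equal median, 1584 detected genes were past 2-fold higher and 646 past 2-fold lower on the CD8+CX3CR1- array, in place of 855 and 1148, and 22 of the ER genes were higher.

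The CD4+ and DN arrays differed less. The 2 genes at least 2-fold lower in CD4+ DCs were Pdia5 and Ssr3 (5.56% against 3.23% of detected genes), and 0 were at least 2-fold higher, against 4.34%. Ssr3 fell short of 2-fold when its probe sets were averaged. Smaller differences mostly ran the same way. The median was -0.36, with 28 genes below 0 and 7 above it, while that of all detected genes was 0.01. The further probe sets had a median of only -0.05 in this pair, so the common direction rests largely on the chosen probe sets, and with probe sets averaged the genes' median was -0.14. Pdia5 was past 4-fold, as were 0.182% of detected genes. With arrays scaled to an equal median, 206 detected genes were past 2-fold higher and 861 past 2-fold lower on the CD4+ array, in place of 547 and 407, and 4 ER genes were lower.

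The other pairs reuse the same arrays, so their values are given side by side only. On the CD8+CX3CR1- array 5 of the 36 genes (13.9%) were at least 2-fold higher than in DN DCs, namely Pdia5, Dnajc3, Creld2, Derl3 and Ssr2, against 4.75% of detected genes. One gene, Os9, was at least 2-fold lower, against 6.17%, and the median was 0.55. In that pair 0.738% of detected genes were at least 4-fold higher, Pdia5 among them. On the CD8+CX3CR1+ array 2 genes, Pdia4 and Pdia5, were at least 2-fold higher than in CD4+ DCs (background 4.47%) and 0 lower (4.89%). The median was 0.34. The further probe sets had a median of only 0.01 in this pair, and 22 of 41 went with the chosen one. That median thus rests largely on the chosen probe sets. With equal medians 1174 detected genes were past 2-fold higher and 271 lower in this pair, in place of 564 and 616. Between the CD8+CX3CR1+ and DN arrays 0 genes were higher (2.97%) and 1, Pdia5, was lower (2.93%), with a median of -0.04. Both shares in that last pair are near the background, and the median of all detected genes was 0 as well.

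**Figure D2:**
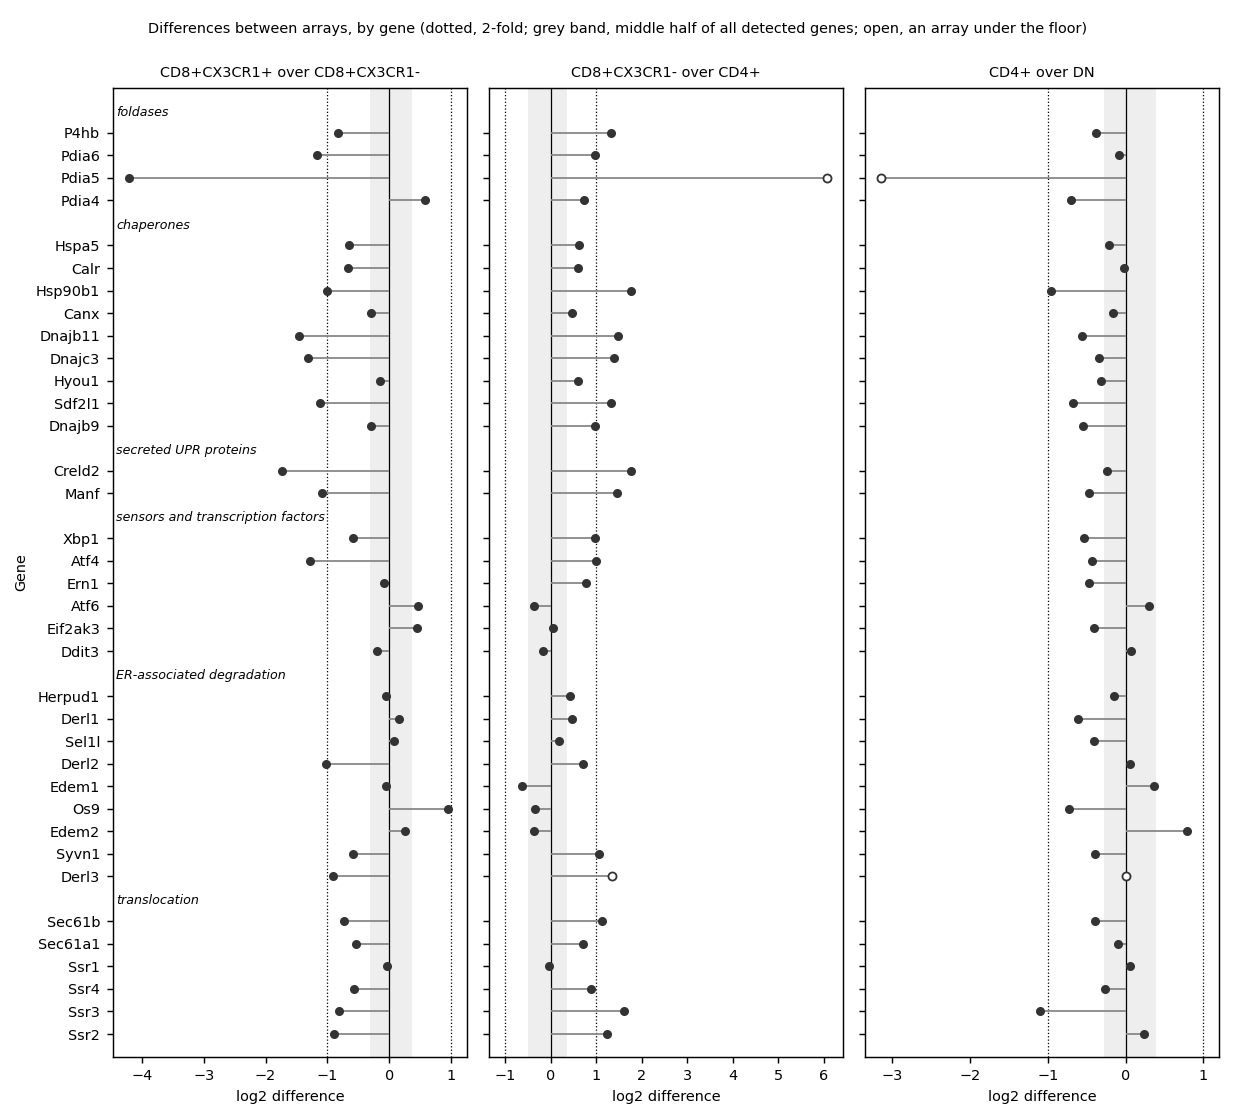
Log2 differences of the 36 genes, grouped by role, in CD8+CX3CR1+ over CD8+CX3CR1-, CD8+CX3CR1- over CD4+ and CD4+ over DN, with dotted lines at 2-fold, a grey band for the interquartile range of all detected genes, and open symbols where an array was under the floor. The points lie mostly left of 0 for CD8+CX3CR1+ over CD8+CX3CR1- (29 of 36) and CD4+ over DN (28 of 36), and right of 0 for CD8+CX3CR1- over CD4+ (30 of 36).

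The promoters of the ER genes were searched for the ER stress response element (ERSE), to which ATF6 and XBP1 bind beside the factor NF-Y. These genes were chosen by function, as genes of ER folding and the UPR. How often they hold the element is therefore no result of the arrays. The element was spelled as CCAAT and CCACG with 9 bases between them and searched on both strands, from 250 bases before to 50 after the start site, in RefSeq promoters of assembly GRCm38.p6. Of the 36 genes, 30 had a promoter in the table, and 9 of the 30 (30.0%) held an ERSE, against 37 of 27025 genes with a promoter (0.137%) and 15 of 10165 detected ones (0.148%). These sites are shown because the element was more frequent in the ER genes' promoters than in all promoters, though 21 of the 30 lacked it. Each is written 5' to 3' with the ends of the element in capitals:
Hspa5 (chr2:34772025-34772043, plus strand): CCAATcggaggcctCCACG
Hsp90b1 (chr10:86705638-86705656, minus strand): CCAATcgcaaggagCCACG
Hsp90b1 (chr10:86705533-86705551, plus strand): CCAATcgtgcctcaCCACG
Calr (chr8:84847075-84847093, plus strand): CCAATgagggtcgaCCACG
Canx (chr11:50325800-50325818, minus strand): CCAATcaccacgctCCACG
Dnajc3 (chr14:118937827-118937845, plus strand): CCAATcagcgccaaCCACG
Creld2 (chr15:88819520-88819538, minus strand): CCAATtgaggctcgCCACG
Pdia6 (chr12:17266491-17266509, plus strand): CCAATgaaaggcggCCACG
Syvn1 (chr19:6046532-6046550, plus strand): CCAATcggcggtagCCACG
Derl3 (chr10:75893242-75893260, minus strand): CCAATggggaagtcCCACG

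The sites lay upstream of the start site, centred between 203 bases before it in Hsp90b1 and 35 in Syvn1. Hsp90b1 held a pair of them, one on each strand. The 6 other detected genes with an ERSE included Ero1b, an ER oxidase gene, and of these 6 it was the 1 highest on the CD8+CX3CR1- array. ERSE-II, a shorter relative with ATTGG and CCACG 1 base apart, stood in 2 promoters, those of Dnajb11 (ATTGGcCCACG, chr16:22857852-22857862, plus strand) and Herpud1 (ATTGGgCCACG, chr8:94386377-94386387, plus strand), against 0.0444% of all genes. The XBP1 element TGACGTGG was found in 0 of 30 promoters, against 0.714% of all genes, and the C/EBP-ATF element, with TGATG and AA 1 base apart, in 1, that of Herpud1, against 4.51%.

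**Figure D3:**
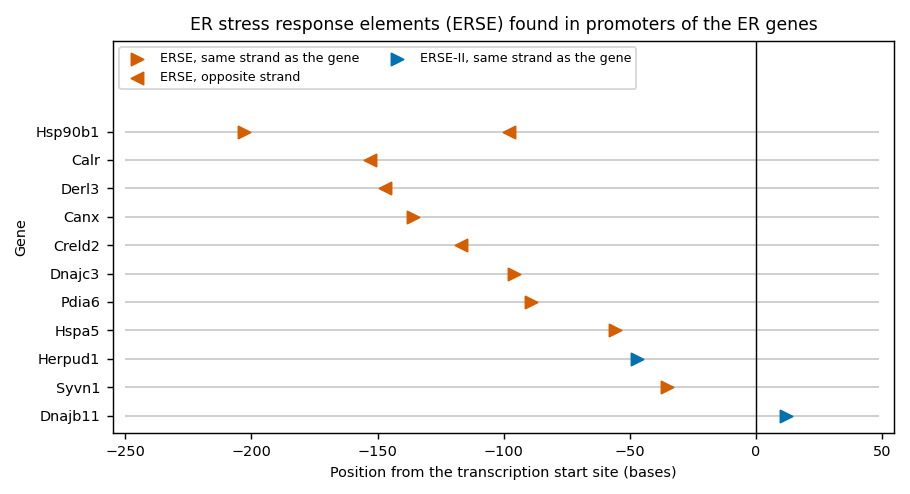
Positions of the ERSE and ERSE-II elements in bases from the transcription start site (x axis) in the promoters of 11 ER genes, with arrowheads for the strand. The ERSE sites lie between 203 and 35 bases upstream, and the ERSE-II site of Dnajb11 lies just past the start.

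The 9 genes with an ERSE had a median log2 difference of -0.92 in CD8+CX3CR1+ over CD8+CX3CR1- and the 21 without one -0.30. In CD8+CX3CR1- over CD4+ the medians were 1.06 and 0.77, and in CD4+ over DN they were -0.22 and -0.41. Both kinds of gene were thus higher in CD8+CX3CR1- than in CD4+ DCs. A match is a description of letters in this window, and its absence says nothing about binding. The promoters of 4 genes are shown whole, with ERSE letters in capitals on the gene's strand. Hspa5 is the classical gene of this element, Hsp90b1 has a pair of sites, Creld2 had the largest difference between the CD8+ arrays among genes with a site, and Pdia5, the gene furthest apart between arrays, has none in this window:
Pdia5 promoter (chr16:35490824-35491123, minus strand): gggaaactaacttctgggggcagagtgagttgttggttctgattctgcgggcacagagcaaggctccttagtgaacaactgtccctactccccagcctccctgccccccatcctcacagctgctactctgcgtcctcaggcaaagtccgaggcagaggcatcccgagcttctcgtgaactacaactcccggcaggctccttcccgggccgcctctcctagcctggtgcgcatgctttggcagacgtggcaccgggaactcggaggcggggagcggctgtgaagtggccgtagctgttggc
Creld2 promoter (chr15:88819396-88819695, plus strand): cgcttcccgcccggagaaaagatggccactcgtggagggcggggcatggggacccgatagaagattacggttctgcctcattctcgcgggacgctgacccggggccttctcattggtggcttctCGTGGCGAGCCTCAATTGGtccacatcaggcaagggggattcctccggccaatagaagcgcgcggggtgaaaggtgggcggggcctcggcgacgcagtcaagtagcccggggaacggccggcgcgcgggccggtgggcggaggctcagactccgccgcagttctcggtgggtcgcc
Hsp90b1 promoter (chr10:86705395-86705694, minus strand): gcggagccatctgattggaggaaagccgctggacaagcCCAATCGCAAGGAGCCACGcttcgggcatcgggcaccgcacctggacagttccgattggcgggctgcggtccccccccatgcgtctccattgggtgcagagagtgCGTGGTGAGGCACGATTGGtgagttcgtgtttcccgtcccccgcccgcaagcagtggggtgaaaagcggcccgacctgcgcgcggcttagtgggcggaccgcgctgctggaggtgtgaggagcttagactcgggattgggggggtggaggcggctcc
Hspa5 promoter (chr2:34771840-34772139, plus strand): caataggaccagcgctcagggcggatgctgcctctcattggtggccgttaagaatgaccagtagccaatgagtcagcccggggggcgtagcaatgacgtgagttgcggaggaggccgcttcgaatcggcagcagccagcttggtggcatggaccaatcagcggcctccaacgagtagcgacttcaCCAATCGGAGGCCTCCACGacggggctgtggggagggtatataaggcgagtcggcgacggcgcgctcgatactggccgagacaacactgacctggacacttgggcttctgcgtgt

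The foldases are thiol oxidoreductases that form and shuffle disulfide bonds. Pdia5, whose product has been linked in human cells to the activation of ATF6, read 203, 3755, 19.6 and 492 on the CD8+CX3CR1+, CD8+CX3CR1-, CD4+ and DN arrays, with the CD4+ value under the floor. Its CD8+CX3CR1+ signal was 18.5-fold lower than that of the CD8+CX3CR1- array. The CD8+CX3CR1- signal was at least 67.4-fold higher than that of the CD4+ array and 7.64-fold higher than that of the DN array. No other ER gene spanned such a range. Pdia5 is measured by 1 probe set on this platform, so no further probe set could be set beside it.

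Pdia6, a further foldase, read 1760, 3955, 2027 and 2157 on the CD8+CX3CR1+, CD8+CX3CR1-, CD4+ and DN arrays, and was 2.25-fold lower in CD8+CX3CR1+ than in CD8+CX3CR1- DCs. P4hb, the founding protein disulfide isomerase, read 2372, 4230, 1684 and 2195, and was 2.51-fold higher in CD8+CX3CR1- than in CD4+ DCs. Both were highest on the CD8+CX3CR1- array, and the other arrays lay close together. Pdia4 went another way, at 200, 134, 79.9 and 130, highest on the CD8+CX3CR1+ array and 2.50-fold higher there than in CD4+ DCs.

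At the chosen probe sets all 9 chaperones were highest on the CD8+CX3CR1- array, against 26.8% of all detected genes. Of the 9, 7 were lowest on the CD4+ array, against 24.3%. Hspa5 encodes BiP, the main Hsp70 chaperone of the ER and the protein that holds the UPR sensors inactive. It read 8580, 13458, 8755 and 10164 on the CD8+CX3CR1+, CD8+CX3CR1-, CD4+ and DN arrays, 1.57-fold lower in CD8+CX3CR1+ than in CD8+CX3CR1- DCs. Hsp90b1 encodes GRP94, a chaperone of Toll-like receptors and integrins, and read 927, 1853, 542 and 1054. At these probe sets the CD8+CX3CR1- array thus stood 3.42-fold above the CD4+ array for Hsp90b1 and 1.54-fold above it for Hspa5. Of the further Hspa5 probe sets, 1 read 584, 1244, 458 and 834 in the same order. Another read 287, 242, 301 and 193, highest on the CD4+ array. The further Hsp90b1 probe set read 904 against 120 between the CD8+CX3CR1- and CD4+ arrays. The size of these differences thus depends on the probe set.

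The J-domain partners of BiP were among the genes furthest apart. Dnajb11, which hands unfolded proteins to BiP, read 585, 1601, 577 and 854 and was 2.74-fold lower in CD8+CX3CR1+ than in CD8+CX3CR1- DCs. Dnajc3, also known as a restraint on PERK, read 477, 1180, 452 and 571 and was 2.47-fold lower. Sdf2l1, which forms a complex with Dnajb11, read 192, 418, 167 and 268 and was 2.18-fold lower. For these genes the CD8+CX3CR1+ and CD4+ arrays were close to each other, and the CD8+CX3CR1- array was above all the others. Dnajb9, a partner that restrains IRE1, differed less, at 209, 257, 131 and 192.

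Hyou1, the nucleotide exchange factor of BiP, read 560, 620, 407 and 508. The lectin chaperones hold glycoproteins while they fold. Calr, which is also part of the loading complex of MHC class I, read 2712, 4300, 2818 and 2845, and Canx read 907, 1110, 800 and 898. None of these 3 genes reached 2-fold in any pair at the chosen probe sets, where each was highest on the CD8+CX3CR1- array. Each had a further probe set past 2-fold in some pair. That of Hyou1 read a value under the floor, 145, 157 and 134, highest on the CD4+ array. That of Canx read 56.3 on the CD8+CX3CR1+ array against 161 on the CD8+CX3CR1- array. That of Calr read 3582 on the CD8+CX3CR1- array against 1640 on the CD4+ array.

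Both secreted UPR proteins were at least 2-fold apart. Creld2, whose product leaves the cell under ER stress, read 1313, 4351, 1272 and 1502 on the CD8+CX3CR1+, CD8+CX3CR1-, CD4+ and DN arrays. It was 3.31-fold lower in CD8+CX3CR1+ than in CD8+CX3CR1- DCs, and on the CD8+CX3CR1- array 3.42-fold higher than in CD4+ DCs and 2.90-fold higher than in DN DCs. Manf, a neurotrophic factor that also binds BiP in the ER, read 787, 1682, 609 and 843 and was 2.14-fold lower in CD8+CX3CR1+ DCs. The CD8+CX3CR1- array thus stood apart for both, with the other arrays within a narrow range.

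The sensors and transcription factors had a median of -0.14 in CD8+CX3CR1+ over CD8+CX3CR1-. Of the 6 genes, 3 were highest on the CD8+CX3CR1- array, against 26.8% of all detected genes. Ern1 read 803, 856, 501 and 692, Eif2ak3 402, 296, 287 and 381, and Atf6 493, 355, 460 and 373 on the CD8+CX3CR1+, CD8+CX3CR1-, CD4+ and DN arrays. At the chosen probe sets none of the 3 sensor genes reached 2-fold in any pair. Eif2ak3 and Atf6 were highest there on the CD8+CX3CR1+ array. Of the further Atf6 probe sets, 1 read 173, 181, 106 and 159.5 in the same order, highest on the CD8+CX3CR1- array. Another read 96.8, 124, 322 and 263, highest on the CD4+ array, with a log2 difference of -1.73 in CD8+CX3CR1+ over CD4+. The probe sets of Atf6 thus give no settled order.

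Xbp1 read 1754, 2629, 1331 and 1931, a log2 difference of -0.58 in CD8+CX3CR1+ over CD8+CX3CR1-. At this probe set it was 1.97-fold higher in CD8+CX3CR1- than in CD4+ DCs. Its further probe sets above the floor on all 4 arrays read 447, 777, 645 and 624, and 373, 657, 476 and 387. Both were highest on the CD8+CX3CR1- array but lowest on the CD8+CX3CR1+ array. Their log2 differences were only 0.27 and 0.46 in CD8+CX3CR1- over CD4+. These probe sets were not used to separate spliced from unspliced Xbp1. Atf4 read 1001, 2440, 1213 and 1637 and was the 1 gene of this group past 2-fold, at 2.44-fold lower in CD8+CX3CR1+ DCs and 2.01-fold higher in CD8+CX3CR1- than in CD4+ DCs. Its further probe set above the floor read 285 against 368 between the CD8+ arrays, the same direction by less than 2-fold. Ddit3, which encodes the stress factor CHOP and is a target of ATF4, read 149, 170, 192 and 182. The range of Ddit3 was thus narrow, and it was not highest where Atf4 was.

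The genes of ER-associated degradation were mixed, with 4 of 9 highest on the CD8+CX3CR1- array, against 26.8% of all detected genes. Derl2, a derlin of the retrotranslocation complex, read 594, 1211, 743 and 714 on the CD8+CX3CR1+, CD8+CX3CR1-, CD4+ and DN arrays and was 2.04-fold lower in CD8+CX3CR1+ than in CD8+CX3CR1- DCs. Its further probe set, at 281 against 236, went the other way. Derl3, a derlin known from secretory tissues, read 75.6 and 143 on the CD8+CX3CR1+ and CD8+CX3CR1- arrays and was under the floor on the CD4+ and DN arrays. On the CD8+CX3CR1- array Derl3 was therefore at least 2.56-fold higher than on either of these. Syvn1, the ubiquitin ligase also called HRD1, read 199, 298, 143 and 187 and was 2.09-fold higher in CD8+CX3CR1- than in CD4+ DCs.

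Herpud1, a stress-induced HRD1 cofactor, read 1926, 1987, 1475 and 1632, and its further probe set 697, 708, 179 and 511, both highest on the CD8+CX3CR1- array and lowest on the CD4+ array. Os9, a lectin that recognises trimmed glycans, read 629, 324, 408 and 677 at the chosen probe set, 2.09-fold lower in CD8+CX3CR1- than in DN DCs. Its further probe set, at 219, 174, 145 and 106, had the opposite direction in that pair. Edem1, which takes misfolded glycoproteins out of the folding cycle, read 535, 555, 862 and 669 at the chosen probe set, highest on the CD4+ array, and 306, 571, 236 and 222 at the other, highest on the CD8+CX3CR1- array. The probe sets of Os9 and Edem1 thus give no settled order for these genes. Edem2, a mannosidase, read 499, 417, 537 and 311. Sel1l, the partner of HRD1, lay between 706 and 939 on the 4 arrays, and Derl1 between 1192 and 1839. The degradation genes as a group had a median of -0.04 in CD8+CX3CR1+ over CD8+CX3CR1-, against -0.67 for the chaperones.

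The translocation genes code for the Sec61 channel and the translocon-associated protein (TRAP) complex beside it. Of 6, 5 were highest on the CD8+CX3CR1- array at the chosen probe sets, against 26.8% of all detected genes. The channel subunit Sec61a1 read 1990, 2887, 1753 and 1868 and the small subunit Sec61b 2440, 4071, 1866 and 2440 on the CD8+CX3CR1+, CD8+CX3CR1-, CD4+ and DN arrays. Sec61b was 2.18-fold higher in CD8+CX3CR1- than in CD4+ DCs. Among the TRAP subunits, Ssr3 read 981, 1718, 558 and 1193, Ssr2 448, 828, 349 and 295, and Ssr4 1674, 2495, 1342 and 1615.

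At its chosen probe set Ssr3 was 3.08-fold higher in CD8+CX3CR1- than in CD4+ DCs and 2.14-fold lower in CD4+ than in DN DCs. Its further probe set had log2 differences of only 0.60 and -0.55 in these pairs. With its probe sets averaged, Ssr3 fell short of 2-fold in CD4+ over DN. Ssr2 was 2.37-fold higher in CD8+CX3CR1- than in CD4+ DCs and 2.81-fold higher than in DN DCs. Ssr1, in the same complex, stayed between 1829 and 1926 on the 4 arrays. At the chosen probe sets the TRAP subunits therefore did not share a common pattern. Between the CD8+ arrays 0 of the 6 translocation genes reached 2-fold at those probe sets, with a group median of -0.66. Of all detected genes 5.81% were at least 2-fold lower and 7.72% higher, so 0 of 6 is near the background. Further Ssr1 probe sets read 109, 187, 129 and 160.5, and 89.7, 56.4, 172 and 59, so its order is not settled. Further Ssr4 probe sets read 75.6, 92.6, 106 and 84.8, and 111, 128, 136 and 106. Both were highest on the CD4+ array, where the chosen Ssr4 probe set was lowest. Further Sec61a1 probe sets read 96.9 against 216, 315 against 633 and 174 against 368 between the CD8+ arrays. These were past 2-fold lower, while its other further probe sets fell short of 2-fold.

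The further probe sets of the ER genes gave a check of probe error, but not of how far mice or sorts vary. In CD8+CX3CR1+ over CD8+CX3CR1-, 61 of 77 probe sets above the floor on either array were below 0, and 31 of 41 further probe sets had the direction of their gene's chosen one. In CD8+CX3CR1- over CD4+, 59 of 78 were above 0, and 27 of 42 further ones went with the chosen one. In CD4+ over DN, 49 of 77 were below 0, but 23 of 42 further ones went with the chosen one. Over the probe sets of 1 gene, log2 differences had a median standard deviation of 0.55, 0.47 and 0.38 in these pairs. That spread is a large part of most differences, so single genes near 2-fold are uncertain. Hsp90b1, lower on the CD8+CX3CR1+ array by just under 2-fold, had a further probe set at 250 against 904. That probe set was past 2-fold in the same direction. The further probe sets past the floor for Dnajc3 were 105, 111 and 86.4 on the CD8+CX3CR1+ array against 184, 139 and 77.2 on the CD8+CX3CR1- array, and the last went the other way.

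**Figure D4:**
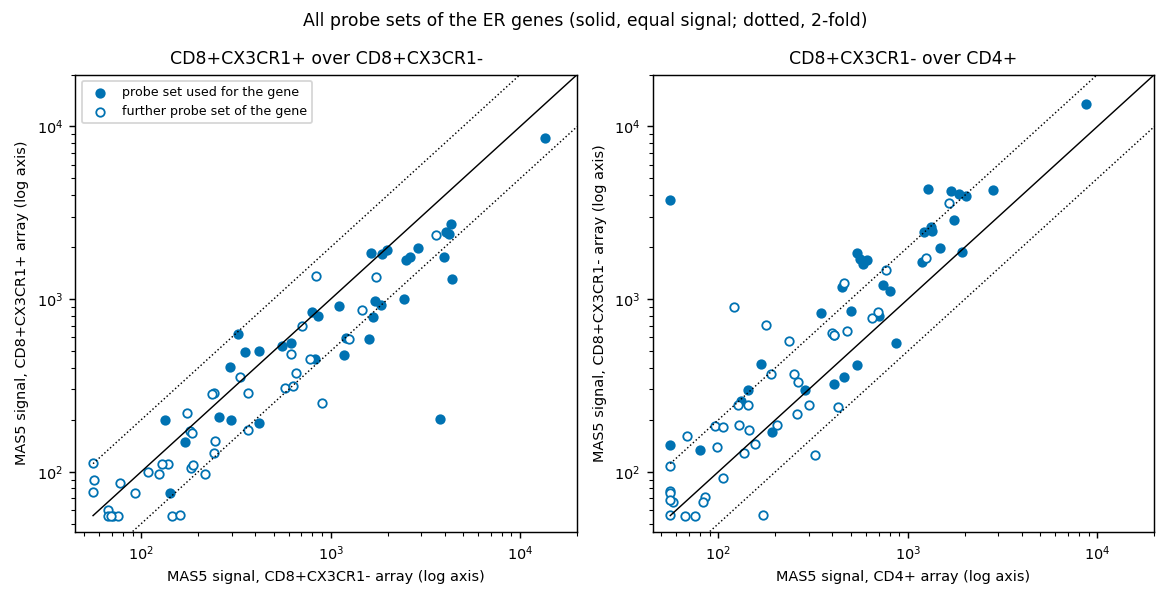
MAS5 signal (both axes log) of every probe set of the 36 genes, for CD8+CX3CR1+ over CD8+CX3CR1- and CD8+CX3CR1- over CD4+, with filled points for the probe set used and open ones for further probe sets. In the left panel 61 of 77 probe sets lie under the line of equal signal, and in the right panel 59 of 78 lie above it.

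Since differences may depend on signal, genes of high mean signal were looked at on their own, a choice made after the data were seen. Of 1785 detected genes with a mean signal of at least 821, the median of the 36, 6.95% were at least 2-fold lower in CD8+CX3CR1+ over CD8+CX3CR1-, with a median of -0.12. Of the 18 ER genes in that range, 5 were at least 2-fold lower, with a median of -0.70. In CD8+CX3CR1- over CD4+, 7.23% of the bright genes and 8 of the 18 ER genes were at least 2-fold higher.

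Other genes of the ER were described through further lists. In CD8+CX3CR1+ over CD8+CX3CR1-, 5.81% of all detected genes were at least 2-fold lower and 7.72% higher. In CD8+CX3CR1- over CD4+, 6.78% were higher and 9.11% lower. Of 17 detected genes of the other protein disulfide isomerases and ER oxidases, 6 were at least 2-fold lower and 1, Tmx4, higher in CD8+CX3CR1+ over CD8+CX3CR1-, with a median of -0.46. In CD8+CX3CR1- over CD4+, 9 were higher and 0 lower, with a median of 1.02. Txndc15, a thioredoxin-domain protein, read 481, 2272, 380 and 693 on the CD8+CX3CR1+, CD8+CX3CR1-, CD4+ and DN arrays, and Txndc16, a related one, 111, 337, a value under the floor, and 182. The oxidase gene Ero1b, which has an ERSE, read 1247, 3502, 1171 and 1807, and Pdia3, the foldase of glycoproteins and of MHC class I loading, 1035, 2890, 940 and 1031. Of the 19 genes on the platform, 12 were highest on the CD8+CX3CR1- array, while Tmx1, Tmx4 and Txndc12 were highest on the CD8+CX3CR1+ array.

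Of 16 genes of glycan transfer and trimming, 15 were below 0 in CD8+CX3CR1+ over CD8+CX3CR1-, with a median of -0.48, though only Tusc3 (125 against 282) and Rpn2 (690 against 1452), subunits of the oligosaccharyltransferase, were at least 2-fold lower. The list of signal recognition, translocon partners and signal peptidase had a median of -0.21 and 0 of 18 past 2-fold, and Sec63, a translocon partner of BiP, read 263 against 517. In the ER to Golgi list, with a median of -0.26, 1 of 22 genes was lower, the coat gene Sec24d (148 against 383), and 1 was higher, Kdelr1 (325 against 145), a receptor that retrieves ER proteins. Cytosolic and mitochondrial heat shock genes had a median of -0.39 with 0 of 12 past 2-fold. The direction was thus shared by several lists, with few single genes past the threshold. Counts of 0 or 1 gene lower per list are near the background of 5.81%.

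Genes downstream of PERK and of amino acid shortage had a median of 0 in CD8+CX3CR1+ over CD8+CX3CR1-, with 1 of 19 at least 2-fold higher and 1 lower. Both counts are near the background of 7.72% and 5.81%. Ddit4, an inhibitor of mTORC1, read 1482, 86.7, 1824 and 1376 on the CD8+CX3CR1+, CD8+CX3CR1-, CD4+ and DN arrays, 17.1-fold higher in CD8+CX3CR1+ than in CD8+CX3CR1- DCs. Atf3, a stress transcription factor, read 158, 461, 428 and 516. Neither Trib3 nor the chosen Slc7a11 probe set passed the floor on any array, and Asns, an amino acid synthesis target of ATF4, lay between a value under the floor and 88.1. The list did not have the direction of the chaperones.

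Of 9 genes for other ER membrane sensors and their proteases, 2 were at least 2-fold lower, Creb3 (590 against 1346), a membrane-bound transcription factor, and Rtcb (3338 against 7287), the ligase that joins the spliced Xbp1 exons. The list's median was 0.08, with 5 genes above 0 and 3 below it. For 21 other degradation genes the median was -0.17, and 1, Erlin1 (1303 against 2797), was at least 2-fold lower. That count is near the background of 5.81%. Among 11 other chaperones and prolyl isomerases, Fkbp7 alone was past 2-fold, higher in CD8+CX3CR1+ DCs, and the list's median was -0.28. Of 9 detected transcripts known as substrates of IRE1-dependent decay, 2 were at least 2-fold lower, Pdia3 and Ccr7 (360 against 983), with a median of -0.14.

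**Figure D5:**
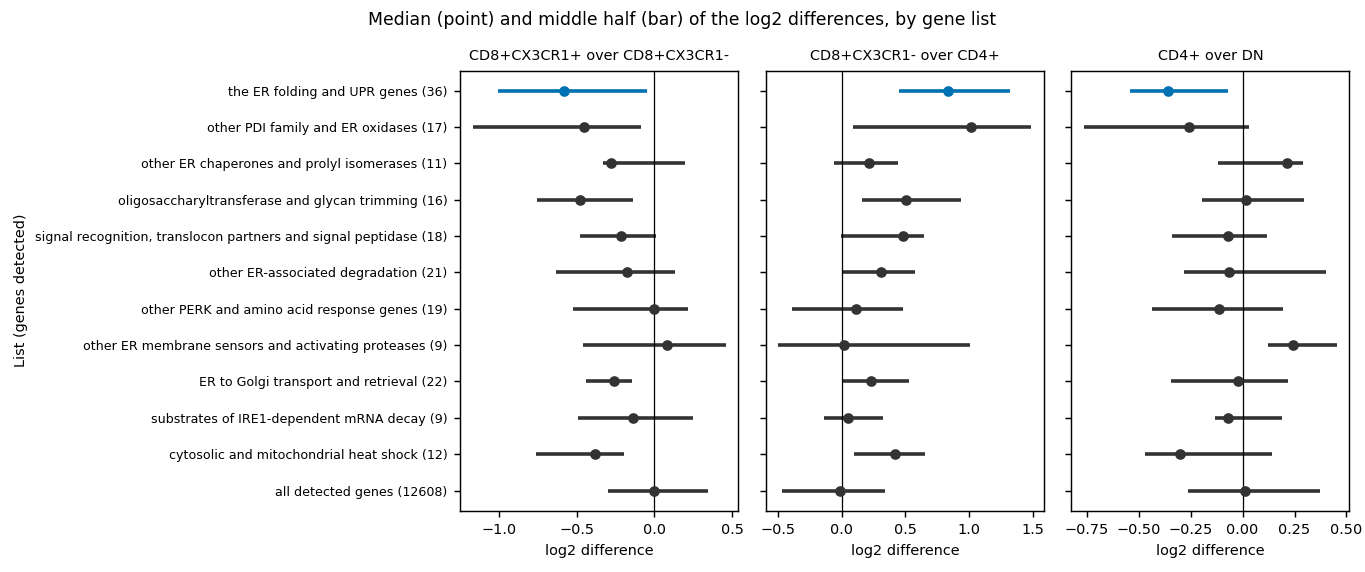
Median (point) and interquartile range (bar) of the log2 differences of each gene list in 3 comparisons, with the ER folding and UPR genes at the top and all detected genes at the bottom. The medians of the top row are -0.58, 0.83 and -0.36, and those of the bottom row are 0, -0.01 and 0.01.

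Markers of other cells were read beside these results. Of 7 plasma cell markers, 4, 4, 4 and 3 lay above the floor on the CD8+CX3CR1+, CD8+CX3CR1-, CD4+ and DN arrays, with summed signals of 1568, 1258, 1390 and 998. The plasma cell genes Sdc1 and Tnfrsf17 did not reach the floor on the CD8+CX3CR1- array, at 40.7 and 6.2, and Jchain was 75.5 there, against 162 on the CD8+CX3CR1+ array. The summed plasma cell markers were highest on the CD8+CX3CR1+ array, and the ER genes on the CD8+CX3CR1- array. Whether plasma cells had a part in the ER values was not tested. Of 9 plasmacytoid DC markers, 7, 7, 7 and 6 were above the floor in the same order, and their sum was 6652, 1142, 1638 and 2572. B cell markers (6 genes) summed to 1734, 785, 3256 and 3182 and macrophage and monocyte markers (10 genes) to 3429, 2245, 4540 and 2999, both lowest on the CD8+CX3CR1- array. T cell markers (7 genes) summed to between 144 and 350, NK cell markers (5 genes) to between 159 and 475, neutrophil markers (7 genes) to between 194 and 340, and all 4 erythroid markers were under the floor on every array.

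Of 15 DC sort and subset markers, 13, 12, 12 and 13 lay above the floor on the CD8+CX3CR1+, CD8+CX3CR1-, CD4+ and DN arrays. They summed to 16554, 31497, 14812 and 14745. The list mixes markers of different subsets, so the sum does not measure DC content. In CD8+CX3CR1- over CD4+, 5 of the 15 were at least 2-fold higher (background 6.78%) and 5 at least 2-fold lower (9.11%). Irf8, a transcription factor of the CD8+ lineage, read 1409, 13285, 617 and 4847 on the CD8+CX3CR1+, CD8+CX3CR1-, CD4+ and DN arrays. The chemokine receptor gene Xcr1 was 519 on the CD8+CX3CR1- array and under the floor on the others. The DN array came second for both Irf8 and Pdia5, and whether cells of the CD8+ lineage had a part in its ER values was not tested.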

How the data were processed

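Total RNA of 4 sorted DC subsets was measured on 1 array each. The deposited values are intensities per probe set made with MAS5 by the authors, per the submitters' processing notes (version not given in the sources used here). Their mean after trimming 2% at each end was 150.0 on every array, so a difference in total RNA per cell is not visible. Of 45101 probe sets, 64 are controls, and 34945 have 1 gene symbol in GEO's platform annotation, 932 have several and 9160 have none.

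Samples were grouped by title. Each gene was read at its brightest probe set by mean log2, signals were raised to the floor, and log2 differences were taken for 6 pairs of arrays, 3 of them main ones. A gene counted as past the threshold at 2-fold, and folds against an array under the floor are bounds. Genes named are those past 2-fold in any pair, the rest of the 37 by values or range, and up to 2 per further list with the largest differences; Tmx1, Tmx4, Txndc12, Ero1b, Pdia3, Fkbp7, Trib3, Slc7a11, Asns and the lineage genes were added after their values were seen. The members and the 19 lists were chosen with earlier results of these data known. Promoters came from RefSeq, and 99.4% of the platform's Entrez identifiers stand in its gene table of GRCm38.p6. The steps were tested on simulated data and run in Python 3.11.15 with pandas 2.3.3. Protein sequences were not used here.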

Additional observations from a re-analysis of the deposited data

How the results depend on the processing

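No paired analysis was possible because each subset has 1 array, and for the same reason no replicate could be left out. Tried were 8 other settings: scaling to an equal median or by quantiles, no floor, the floor set per array or at the 75th or 95th percentile (35.3 or 73.3), the mean over probe sets, and no _x, _s or _a probe sets. The median of the ER genes kept its sign in all 8 for CD8+CX3CR1+ over CD8+CX3CR1- (-0.63 to -0.30), CD8+CX3CR1- over CD4+ (0.74 to 1.18) and CD4+ over DN (-0.64 to -0.14). It was 0.08 to 0.62 in CD8+CX3CR1+ over CD4+ and -0.16 to 0.00 in CD8+CX3CR1+ over DN. Scaling to an equal median moved the median of all genes by over 0.1, to 0.15 in CD8+CX3CR1- over CD4+, -0.12 in CD4+ over DN and 0.18 in CD8+CX3CR1+ over CD4+. With a floor per array it was -0.16 in CD8+CX3CR1+ over CD8+CX3CR1-, -0.14 in CD8+CX3CR1+ over CD4+, 0.15 in CD4+ over DN and 0.16 in CD8+CX3CR1- over DN, against ER medians of -0.58, 0.33, -0.36 and 0.55, and with no floor -0.12 in CD8+CX3CR1- over CD4+ and 0.11 in CD4+ over DN. With equal medians, 22 ER genes were at least 2-fold higher in CD8+CX3CR1- over CD4+ in place of 14, 4 were lower in CD4+ over DN in place of 2, and 5 were higher in CD8+CX3CR1+ over CD4+ in place of 2. Without _x, _s and _a probe sets, which left 29 genes, these counts were 9 and 1 for the first pairs, and 3 were higher in CD8+CX3CR1- over DN in place of 5. Os9 fell short of 2-fold in CD8+CX3CR1- over DN with equal medians or averaged probe sets, which left 0 genes lower. Counts of 0 to 2 in CD8+CX3CR1+ over CD4+ or DN changed by 1 gene with averaged probe sets or without _x, _s and _a probe sets. Of 34 gene differences past 2-fold, 21 stayed past it in every setting that gave a value, and 0 changed sign. With averaged probe sets, Pdia6, Dnajc3, Atf4 and Derl2 were under 2-fold in CD8+CX3CR1+ over CD8+CX3CR1-. The bound of Pdia5 in CD8+CX3CR1- over CD4+ moved with the floor, from a log2 of 5.68 at the 95th percentile to 6.73 at the 75th. Precision is limited by 1 array per subset, and low MAS5 signals vary widely.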
